A study of Homo sapiens with 6 samples.

Results

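The genes described here are 38 genes of homologous recombination and the Fanconi pathway, 2 connected routes of DNA repair, out of 58735 genes in the deposited table. They were chosen by name, and each name matched 1 row. RNA was sequenced from HaCaT, an established line of human skin keratinocytes that became immortal on its own, of wild-type genotype per the labels, to find which cell pathways differ after treatment with dacomitinib, which blocks EGFR and its relatives irreversibly. Cells of the dacomitinib group were treated for 48 h from about 70% confluence (3 samples), and the other group is labelled control (3 samples). The series' text names 0.1% DMSO for the experimental group, while neither the dacomitinib dose nor the vehicle of the controls is given there. Control columns were identified by name, and the remaining 3 columns were taken as dacomitinib by elimination, so the direction of each difference rests on that assignment. Which dacomitinib sample each of these columns holds is not known, and a dacomitinib replicate number below names only the column. The labels do not say whether samples came from separate cultures. The spread that p-values rest on may therefore be technical.

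Homologous recombination repairs broken DNA by copying an intact template, usually the sister chromatid, and is used mainly in S and G2 phase. Nucleases trim the broken end to a single strand, BRCA1, PALB2 and BRCA2 prepare that strand to invade the template, and helicases take the joined molecules apart. The Fanconi pathway handles crosslinks between the DNA strands: a core complex attaches ubiquitin to FANCD2 and FANCI, which brings in nucleases and recombination factors. Squamous epithelia are a main site of cancer in people with Fanconi anaemia.

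Most of these genes had less RNA with dacomitinib, in bulk samples in which fewer cells of a type and less RNA per cell cannot be told apart. Of the 37 members tested, 28 fell, 0 rose and 9 did not pass the test, against 34.8% of all 13748 tested genes called lower, 25.4% called higher and 60.2% called in either direction. The test was limma on log2(FPKM + 1), where FPKM are fragment counts divided by the length of the gene and the size of the library, for genes with a mean of at least 1 FPKM, with a Benjamini-Hochberg adjusted p threshold of 0.05 over all tested genes. At an unadjusted p under 0.05, 0 members were higher in limma and 0 in limma-voom, which kept the library scaling of the deposited FPKM. With TPM (FPKM rescaled to the same sum in each library) 4 were higher. Of those 4, ATM and FANCL were also called higher in TPM at the adjusted threshold. RAD54B was below the limit, and FANCA passed it through its control level alone. Without a limit on low values all 38 were tested and 29 fell, against 13.9% of 32812 genes. The median difference of the tested members was -1.03 on the log2 scale, beside -0.06 over all tested genes. At least 2-fold lower in FPKM + 1 were 19 members, against 6.81% of tested genes.

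By size, 12 of the 38 members were under 20% of their control mean in FPKM, 12 lay between 20% and 50%, 5 between 50% and 80%, and 9 at 80% or above. In 30 tested members every dacomitinib library lay below every control library, against 38.2% of tested genes, and RAD54B did the same. The summed FPKM of the 38 members was 422 to 438 in the controls and 167 to 174 with dacomitinib. TPM moved the median of all tested genes by 0.29 on the log2 scale, and with it 27 members fell and 2 rose (19.8% of tested genes lower and 42.0% higher). With quantile normalization 27 fell and 0 rose (28.6% and 30.4% of tested genes). The fall of 27 members, all but PALB2, kept its direction and call under each of the 16 alternatives in which the gene was tested, the scalings included.

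**Figure D1:**
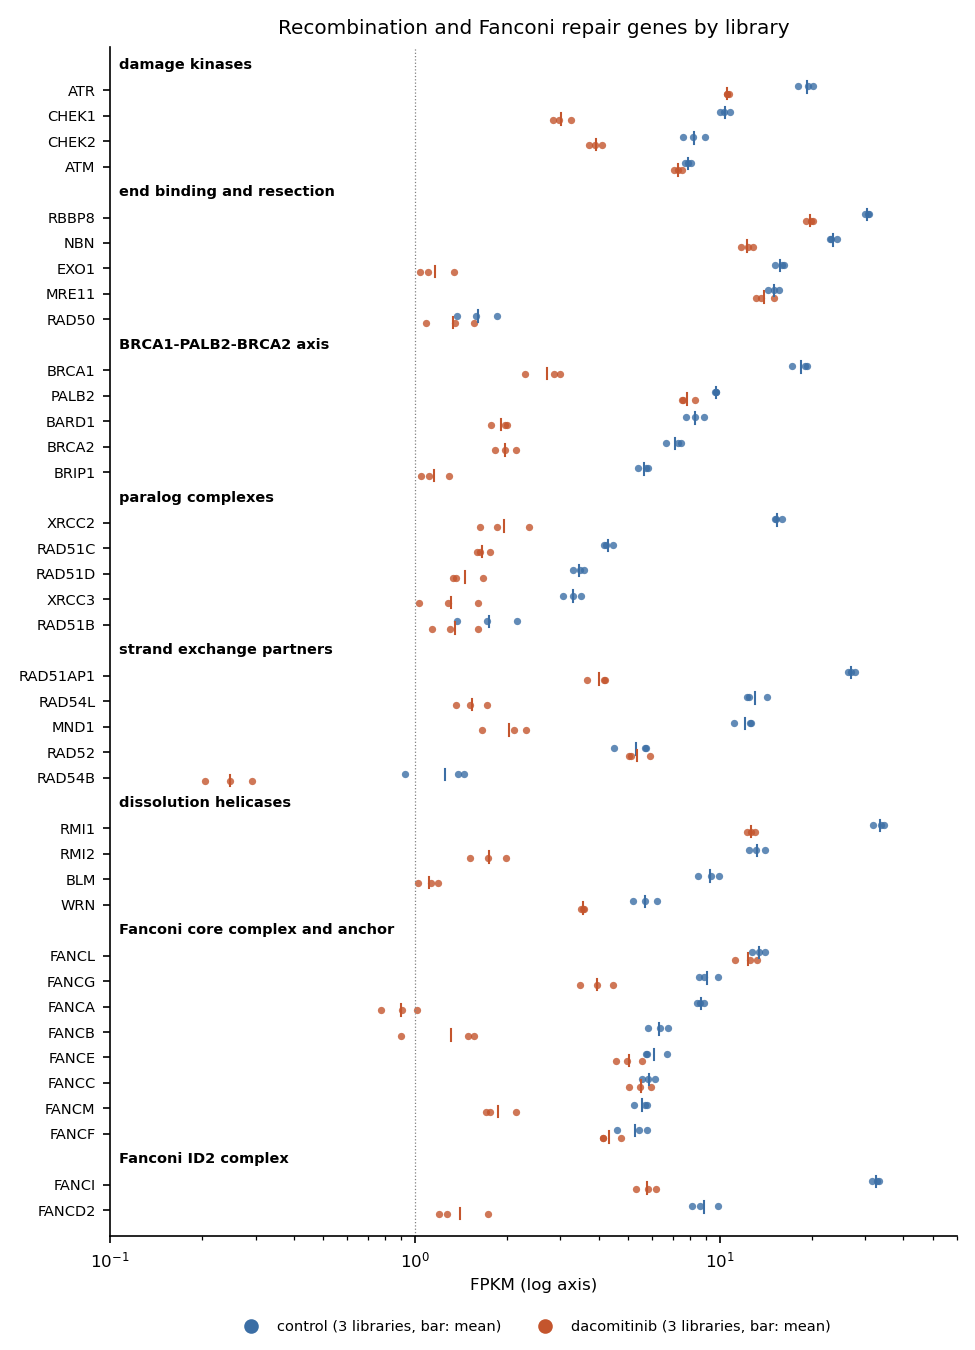
Value of each of the 38 members in every library, in FPKM on a log axis, grouped by role. Points are libraries (3 control, 3 dacomitinib), vertical bars are group means, and the dotted line marks 1 FPKM. EXO1, BRCA1, XRCC2 and FANCI lie far apart between groups, while MRE11, RAD52 and FANCC overlap.

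**Figure D2:**
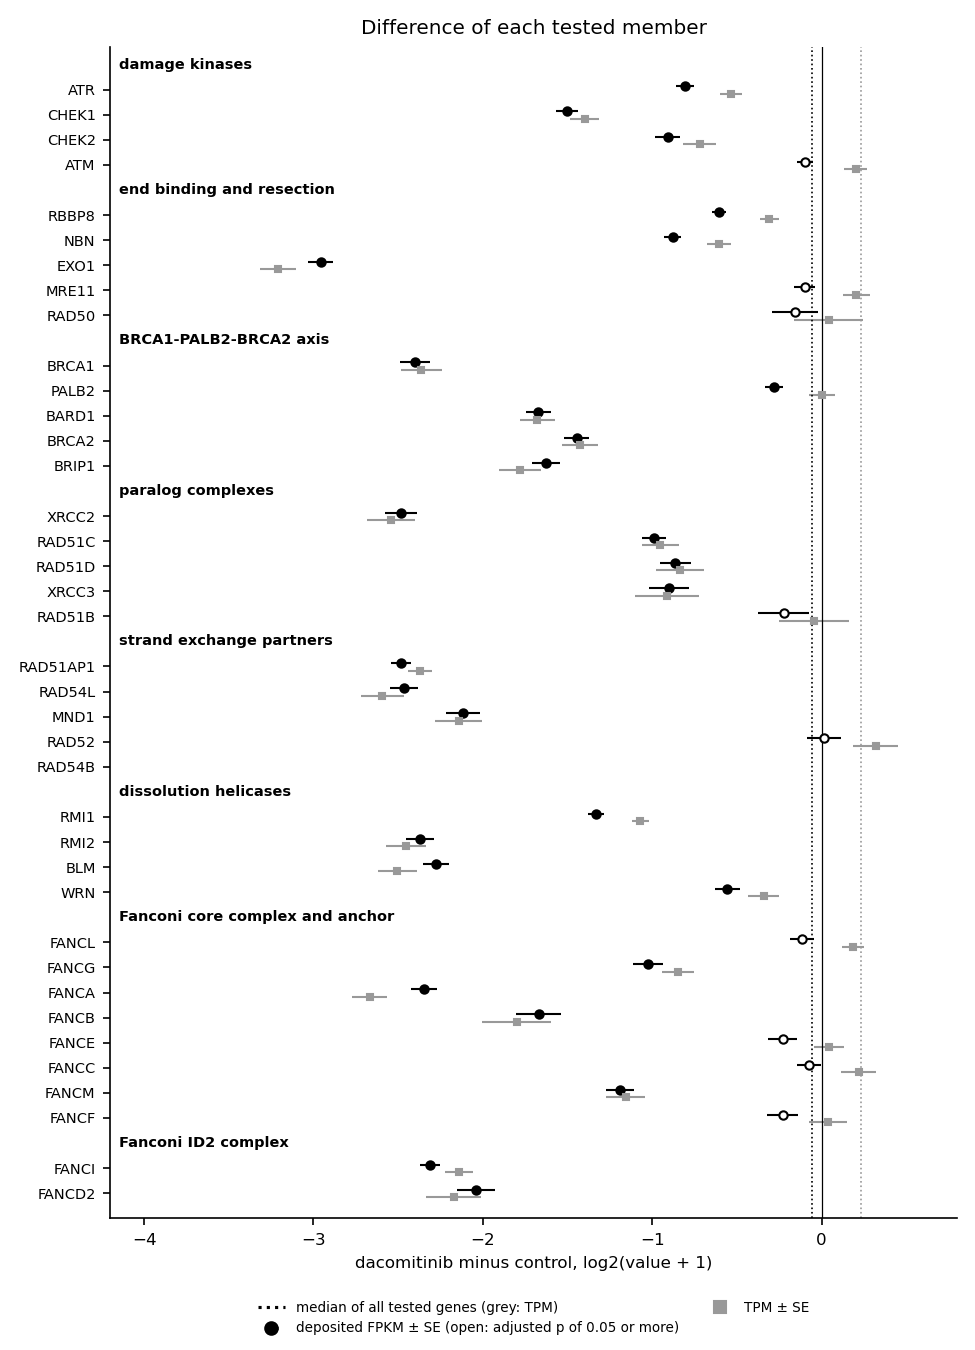
Difference of each of the 37 tested members in log2(value + 1), dacomitinib minus control, with standard errors, on the deposited scale (circles) and in TPM (squares). Dotted lines are the medians of all tested genes, -0.06 and 0.23. Open circles mark the 9 members that did not pass, and RAD54B, below the limit, has no point. The 9 lie between -0.23 and 0.01 on the deposited scale.

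In the libraries as a whole, 14960650 to 16179273 fragments fell on genes, correlations of log2 values across genes were 0.970 to 0.979 within groups and 0.870 to 0.888 between them, and no library stood apart from its group. The keratinocyte markers summed to 1001 to 1065 FPKM in controls and 823 to 945 FPKM with dacomitinib. Of the 8, KRT5, KRT14 and KRT6A were called lower (79.3%, 54.7% and 53.2% of the control mean), KRT17, ITGB4, DSG3 and COL17A1 higher (113% to 192%), and TP63 was not called. Of 12 markers of cycling cells 12 fell, with a median log2 difference of -3.06. MKI67 went from 87.2 ± 3.97 to 5.27 ± 0.530 FPKM (SD, n = 3) and PCNA from 244 ± 12.6 to 52.0 ± 5.07 FPKM. Their part in the fall of the repair genes was not tested. Of 20 markers of fibroblasts, endothelial cells, melanocytes and immune cells 2 passed the limit, CDH5 and CD74, and both were called higher. The fibroblast markers summed to 0.224 to 0.523 FPKM in controls and 1.00 to 1.97 FPKM with dacomitinib, with COL1A2 at 0 in every library and VIM at 0 with dacomitinib, and mostly DCN in the latter. Endothelial markers summed to 1.87 to 2.22 and 10.6 to 13.5 FPKM, mostly CDH5, melanocyte markers to 1.08 to 1.42 and 1.94 to 2.40 FPKM with TYR at 0, and immune markers to 1.30 to 1.66 and 2.00 to 3.47 FPKM. Their part in the results was not tested.

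Promoters were read for members that fell together. The RefSeq table (GRCh38.p14), which gives 250 bases before and 50 after each gene's start, held 33 of the 38 members. An E2F-type motif, recognised by the E2F factors that drive many S phase genes, was searched as TTTCCCGC, TTTCGCGC, TTTGCCGC or TTTGGCGC on both strands; none of these words contains another. It was found in 7 of the 33 members (21.2%), against 3.99% of all 27305 genes in that table and 6.73% of the 8811 of them that were tested. Of 24 members that fell and have a promoter there, 6 held it (25.0%), against 8.53% of the 3657 tested genes there called lower. Of 9 other members 1 did, FANCC, against 5.71% of tested genes not called and 5.10% of those called higher. The 6 were EXO1, XRCC2, FANCD2, MND1, RMI1 and FANCA. The first 5 are shown as 30 bases around the match, read along the gene's strand, with the match in capitals (a match on the opposite strand appears as its reverse complement).
EXO1: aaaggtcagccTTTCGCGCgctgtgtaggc
XRCC2: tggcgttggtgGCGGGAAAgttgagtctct
FANCD2: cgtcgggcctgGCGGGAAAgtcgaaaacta
MND1: cggcgtagtcgGCGCCAAAatcaaacgcgt
RMI1: ggcgcgagcgcGCGGCAAAtcgggcgggaa
These lie at chr1:241848197-241848226, plus strand (EXO1), chr7:152676102-152676131, minus strand (XRCC2), chr3:10026424-10026453, plus strand (FANCD2), chr4:153344643-153344672, plus strand (MND1) and chr9:83980762-83980791, plus strand (RMI1). All 30 bases lie in annotated exons of the gene for EXO1, XRCC2, FANCD2 and RMI1, and 24 of the 30 for MND1. All 5 genes fell, to between 7.37% and 37.9% of the control mean. A longer stretch is shown for FANCA and FANCC, genes of the same core complex that each held a match, picked with their values known. FANCA was at 10.4% and FANCC at 94.2% of its control mean. The FANCA match is TTTGCCGC on the opposite strand, from base -172 relative to the start. Those of FANCC are TTTCCCGC from -46 and TTTCGCGC on the opposite strand from -172. Whether the matches bear on these values was not tested.
FANCA: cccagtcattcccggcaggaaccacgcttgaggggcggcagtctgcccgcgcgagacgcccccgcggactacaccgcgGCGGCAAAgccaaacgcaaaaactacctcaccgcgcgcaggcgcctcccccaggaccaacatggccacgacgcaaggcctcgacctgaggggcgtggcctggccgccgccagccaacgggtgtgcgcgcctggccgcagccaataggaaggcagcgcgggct
FANCC: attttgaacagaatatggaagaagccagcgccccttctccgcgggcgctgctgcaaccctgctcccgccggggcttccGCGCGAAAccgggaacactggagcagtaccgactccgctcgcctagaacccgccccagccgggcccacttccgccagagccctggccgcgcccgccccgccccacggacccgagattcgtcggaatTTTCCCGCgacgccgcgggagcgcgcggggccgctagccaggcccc
The FANCA stretch (chr16:89816658-89816897, minus strand) has 240 bases and 1 match, and the FANCC stretch (chr9:95317710-95317959, minus strand) has 250 bases and 2 matches. FANCC, EXO1 and RMI1 each have 2 starts in that table, and the other start of each had no match. A CCAAT box, searched as CCAAT on both strands, stood in 15 of 33 members (45.5%) and in 43.5% of tested genes. The cell cycle homology region, TTTGAA or TTCGAA on both strands, was in 3 of 33 (9.09%), ATM, BRIP1 and FANCC, and in 15.2% of tested genes. These matches are descriptions of the letters and show no binding.

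Among the kinases that signal damage, CHEK1, CHEK2 and ATR fell and ATM did not pass the test. CHEK1 (ENSG00000149554, chromosome 11, 125625136 to 125676255, GRCh38), the effector kinase of ATR that holds the cell cycle when replication stalls, measured 10.8, 10.3 and 10.0 FPKM in the controls and 2.83, 2.96 and 3.26 FPKM with dacomitinib. All 3 dacomitinib values lie below all 3 controls, at 29.1% of the control mean and a log2 difference of -1.50 (SE 0.06, limma adjusted p = 5.18e-06). CHEK2, the effector kinase of ATM, measured 8.19, 7.59 and 8.93 FPKM in the controls and 3.72, 4.12 and 3.90 FPKM with dacomitinib, again without overlap, a difference of -0.91 (SE 0.07, limma adjusted p = 7.09e-05). ATR, the kinase activated by single-stranded DNA, fell from 19.3 ± 1.06 to 10.6 ± 0.101 FPKM (SD, n = 3), a difference of -0.81 (SE 0.05, limma adjusted p = 2.99e-05). For ATM, the kinase activated by DNA breaks, the libraries held 7.68, 8.03 and 7.88 FPKM in the controls and 7.06, 7.31 and 7.50 FPKM with dacomitinib. The groups are adjacent without overlapping, and the difference of -0.10 (SE 0.05, limma adjusted p = 0.129) did not pass. In TPM it was 0.20 (limma adjusted p = 0.0382), the opposite direction, close to the TPM median of all genes of 0.23.

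Of the genes that bind and trim broken ends, 3 of 5 fell, beside 34.8% of all tested genes. EXO1 fell most of all members. EXO1 (ENSG00000174371, chromosome 1, 241847967 to 241895148), the exonuclease of long-range resection whose promoter match is shown above, measured 16.0, 15.2 and 16.2 FPKM in the controls and 1.04, 1.11 and 1.35 FPKM with dacomitinib. Every dacomitinib value is far below every control. The difference was -2.96 (SE 0.07, limma adjusted p = 7.68e-07), rank 41 from the largest fall among 13748 genes. NBN, the regulatory subunit of the MRE11-RAD50-NBN complex, measured 24.2, 23.2 and 23.0 FPKM in the controls and 11.7, 12.8 and 12.4 FPKM with dacomitinib. No dacomitinib library reached a control, and the difference was -0.88 (SE 0.05, limma adjusted p = 1.64e-05). RBBP8, also called CtIP, which starts resection with that complex, fell from 30.5 ± 0.570 to 19.7 ± 0.556 FPKM (SD, n = 3, log2 difference -0.60, SE 0.04, limma adjusted p = 3.91e-05), and was the highest member with dacomitinib. The nuclease MRE11 itself measured 15.6, 14.4 and 15.1 FPKM in the controls and 13.2, 13.6 and 15.1 FPKM with dacomitinib. Its groups overlap and its difference was -0.10 (SE 0.06, limma adjusted p = 0.210). RAD50, the ATPase of the complex, measured 1.58, 1.85 and 1.38 FPKM in the controls and 1.35, 1.57 and 1.09 FPKM with dacomitinib, which overlap as well (log2 difference -0.16, SE 0.13, limma adjusted p = 0.348). RAD50 shares 79.7% of its exonic bases in GENCODE 29 with a gene on the same strand, AC116366.3, at 0.0681 FPKM in controls and 0.00881 FPKM with dacomitinib, so its level is uncertain. Within this complex the FPKM ratio NBN over MRE11 was 1.55, 1.61 and 1.53 in the controls and 0.890, 0.940 and 0.819 with dacomitinib.

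All 5 genes of the BRCA1, PALB2 and BRCA2 axis were called lower, but PALB2 by far less than the others. BRCA1 (ENSG00000012048, chromosome 17, 43044295 to 43170245), a ubiquitin ligase subunit that favours resection and recruits PALB2, measured 19.3, 17.3 and 19.0 FPKM in the controls and 2.29, 2.85 and 2.98 FPKM with dacomitinib. Each dacomitinib library is far below each control, at 14.6% of the control mean, with a difference of -2.40 (SE 0.09, limma adjusted p = 3.21e-06). Its partner BARD1, without which BRCA1 is unstable, measured 8.27, 7.77 and 8.88 FPKM in the controls and 1.77, 1.98 and 2.01 FPKM with dacomitinib. That is 23.1% of the control mean with no overlap, a difference of -1.67 (SE 0.07, limma adjusted p = 5.84e-06). The ratio BRCA1 over BARD1 was 2.33, 2.22 and 2.14 in the controls and 1.29, 1.44 and 1.49 with dacomitinib, lower in every dacomitinib library. BRIP1, a helicase bound by BRCA1, fell from 5.64 ± 0.238 to 1.15 ± 0.131 FPKM (log2 difference -1.63, SE 0.08, limma adjusted p = 1.06e-05), and BRCA2, which prepares single-stranded DNA for strand exchange, fell from 7.12 ± 0.415 to 1.98 ± 0.160 FPKM (log2 difference -1.45, SE 0.07, limma adjusted p = 1.17e-05, SD of n = 3). PALB2, the bridge between BRCA1 and BRCA2, measured 9.72, 9.68 and 9.64 FPKM in the controls and 7.52, 8.29 and 7.55 FPKM with dacomitinib. Its dacomitinib values sit just below the controls, and its difference of -0.28 (SE 0.05, limma adjusted p = 0.00346) did not pass in TPM, at 0.00 (limma adjusted p = 0.987), nor with quantile normalization, at -0.13 (limma adjusted p = 0.0909). Over its alternatives the adjusted p was 0.00193 to 0.987. The ratio BRCA2 over PALB2 was 0.765, 0.686 and 0.753 in the controls and 0.243, 0.259 and 0.260 with dacomitinib.

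Among 5 genes of the paralog complexes, which help build and keep the filament that searches for the template, 4 fell and XRCC2 fell most. Over all tested genes 34.8% were called lower. XRCC2 (ENSG00000196584, chromosome 7, 152644779 to 152676165) measured 15.1, 15.2 and 16.0 FPKM in the controls and 1.64, 2.36 and 1.86 FPKM with dacomitinib. The groups are far apart, at 12.6% of the control mean, with a difference of -2.49 (SE 0.09, limma adjusted p = 3.60e-06). RAD51C, which takes part in both paralog complexes, measured 4.17, 4.24 and 4.45 FPKM in the controls and 1.60, 1.77 and 1.63 FPKM with dacomitinib. It lay lower in every dacomitinib library than in any control, with a difference of -0.99 (SE 0.07, limma adjusted p = 5.38e-05). RAD51D, which binds XRCC2 directly, fell from 3.46 ± 0.142 to 1.46 ± 0.189 FPKM (log2 difference -0.86, SE 0.09, limma adjusted p = 0.000272), and XRCC3, the partner of RAD51C, fell from 3.29 ± 0.220 to 1.31 ± 0.294 FPKM (log2 difference -0.90, SE 0.12, limma adjusted p = 0.000708, SD of n = 3). XRCC3 shares 76.7% of its exonic bases with KLC1 on the opposite strand, and the sources do not say if counting used strand, so part of its value may belong to KLC1, at 3.05 FPKM in controls and 2.49 FPKM with dacomitinib. XRCC2 over RAD51D was 4.36, 4.60 and 4.45 in the controls and 1.23, 1.41 and 1.36 with dacomitinib. RAD51B, another paralog that binds RAD51C, measured 1.72, 2.17 and 1.37 FPKM in the controls and 1.61, 1.14 and 1.30 FPKM with dacomitinib. Those values overlap, and the difference of -0.22 (SE 0.15, limma adjusted p = 0.242) did not pass at this low level, with 583 and 512 fragments in all.

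The factors that work at strand exchange held some of the largest falls, next to RAD52, which did not pass. RAD51AP1 (ENSG00000111247, chromosome 12, 4538798 to 4560048), which stimulates joint molecule formation, measured 26.4, 27.7 and 26.9 FPKM in the controls and 4.16, 4.19 and 3.66 FPKM with dacomitinib. No value of either group comes near the other, and the difference was -2.48 (SE 0.06, limma adjusted p = 7.53e-07). RAD54L, the translocase that drives strand exchange on chromatin, measured 12.3, 12.4 and 14.3 FPKM in the controls and 1.36, 1.73 and 1.52 FPKM with dacomitinib. It went to 11.8% of the control mean, a difference of -2.47 (SE 0.08, limma adjusted p = 2.68e-06), and shares 25.1% of its exonic bases with LRRC41 on the opposite strand, which had 8.48 FPKM in controls and 8.81 FPKM with dacomitinib. MND1, a partner of DMC1 best known from meiosis, had 812 fragments over the controls and fell from 12.1 ± 0.858 to 2.03 ± 0.337 FPKM (log2 difference -2.12, SE 0.10, limma adjusted p = 7.80e-06, SD of n = 3). RAD52, an annealing protein with a minor role in recombination of human cells, measured 5.70, 4.49 and 5.73 FPKM in the controls and 5.04, 5.91 and 5.11 FPKM with dacomitinib. The groups overlap, and the difference was 0.01 (SE 0.10, limma adjusted p = 0.910). RAD54L over RAD52 was 2.16, 2.77 and 2.49 in the controls and 0.270, 0.292 and 0.297 with dacomitinib. RAD54B, a relative of RAD54L below the limit, measured 1.38, 0.928 and 1.45 FPKM in the controls and 0.247, 0.204 and 0.292 FPKM with dacomitinib, from 293 fragments in all controls together and 67 in all dacomitinib libraries. All 3 dacomitinib values are below the controls, and without a limit its difference was -0.84 (SE 0.14, limma adjusted p = 0.00727). It shares 59.1% of its exonic bases with FSBP on the same strand, which was at 0.0251 FPKM in controls and 0.0166 FPKM with dacomitinib.

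BLM and its partners RMI1 and RMI2, which dissolve joined DNA molecules, all fell, and so did the related helicase WRN. RMI2 (ENSG00000175643, chromosome 16, 11249619 to 11381662), an OB-fold subunit of the BLM complex, measured 14.0, 13.2 and 12.4 FPKM in the controls and 1.51, 1.99 and 1.74 FPKM with dacomitinib. BLM (ENSG00000197299, chromosome 15, 90717327 to 90816165), the RecQ helicase lost in Bloom syndrome, measured 9.38, 8.50 and 9.91 FPKM in the controls and 1.02, 1.19 and 1.13 FPKM with dacomitinib. In both genes the dacomitinib values are all far under the controls, at 13.2% and 12.0% of the control mean, with differences of -2.37 (SE 0.08, limma adjusted p = 2.85e-06) for RMI2 and -2.28 (SE 0.08, limma adjusted p = 2.64e-06) for BLM. RMI1, the scaffold that joins BLM and its topoisomerase, was the highest member in controls and fell from 33.4 ± 1.41 to 12.7 ± 0.370 FPKM (log2 difference -1.33, SE 0.05, limma adjusted p = 3.16e-06). The ratio RMI1 over RMI2 was 2.41, 2.63 and 2.56 in the controls and 8.62, 6.33 and 7.08 with dacomitinib, higher in every dacomitinib library. WRN, the RecQ helicase lost in Werner syndrome, fell from 5.69 ± 0.507 to 3.54 ± 0.0331 FPKM (log2 difference -0.56, SE 0.07, limma adjusted p = 0.000641, SD of n = 3). BLM over WRN was 1.65, 1.64 and 1.60 in the controls and 0.286, 0.340 and 0.318 with dacomitinib, with BLM above WRN in every control and below it in every dacomitinib library.

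The Fanconi core complex divided into 4 members that fell and 4 that did not pass. FANCA (ENSG00000187741, chromosome 16, 89737549 to 89816657), a scaffold of the core with FANCG, measured 8.64, 8.45 and 8.88 FPKM in the controls and 1.01, 0.774 and 0.909 FPKM with dacomitinib. It was at 10.4% of the control mean with no overlap, a difference of -2.35 (SE 0.07, limma adjusted p = 2.01e-06), and shares 23.6% of its exonic bases with ZNF276 on the opposite strand, at 3.21 FPKM in controls and 2.23 FPKM with dacomitinib. FANCB (ENSG00000181544, chromosome X, 14835961 to 14873069), of the catalytic module of the core, measured 6.78, 5.83 and 6.34 FPKM in the controls and 0.898, 1.56 and 1.49 FPKM with dacomitinib. The dacomitinib values are all below the controls, 1 of them lower than the other 2, and the difference was -1.67 (SE 0.13, limma adjusted p = 6.95e-05). FANCM, the translocase that anchors the core to DNA, fell from 5.55 ± 0.283 to 1.87 ± 0.236 FPKM (log2 difference -1.19, SE 0.08, limma adjusted p = 4.55e-05), and FANCG fell from 9.09 ± 0.666 to 3.96 ± 0.481 FPKM (log2 difference -1.03, SE 0.09, limma adjusted p = 0.000108, SD of n = 3).

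FANCL, the ubiquitin ligase of the core and the partner of FANCB, measured 14.1, 12.8 and 13.5 FPKM in the controls and 13.3, 11.2 and 12.6 FPKM with dacomitinib. These overlap, and the difference of -0.12 (SE 0.07, limma adjusted p = 0.200) did not pass. In TPM it was 0.19 (limma adjusted p = 0.0413), a call in the opposite direction that lies below the TPM median of all genes. FANCC, which pairs with FANCE and FANCF in the core, measured 5.56, 5.83 and 6.12 FPKM in the controls and 5.05, 5.95 and 5.49 FPKM with dacomitinib, an overlap with a difference of -0.07 (SE 0.07, limma adjusted p = 0.395). FANCE measured 6.72, 5.73 and 5.79 FPKM in the controls and 5.57, 4.57 and 4.97 FPKM with dacomitinib. Its groups are adjacent and do not overlap, and its difference of -0.23 (SE 0.09, limma adjusted p = 0.0584) did not pass, though it did without dacomitinib replicate 1, at -0.29 (limma adjusted p = 0.0324), and with the column number as a replicate block, at -0.23 (limma adjusted p = 0.0266). FANCF measured 4.59, 5.78 and 5.44 FPKM in the controls and 4.13, 4.12 and 4.75 FPKM with dacomitinib. Those overlap, and its difference of -0.23 (SE 0.09, limma adjusted p = 0.0687) passed without control replicate 1 alone, at -0.31 (limma adjusted p = 0.0261). The adjusted p over the alternatives was 0.0266 to 0.687 for FANCE and 0.0261 to 0.795 for FANCF. The FPKM ratio of FANCB over FANCL was 0.480, 0.456 and 0.470 in the controls and 0.0676, 0.139 and 0.118 with dacomitinib, and that of FANCA over FANCG was 0.976, 0.985 and 0.902 in the controls and 0.228, 0.222 and 0.230 with dacomitinib. Both ratios were lower in every dacomitinib library than in any control.

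Both members of the ID2 complex, the pair to which the core attaches ubiquitin, fell. FANCI (ENSG00000140525, chromosome 15, 89243949 to 89317261) measured 32.7, 31.5 and 33.3 FPKM in the controls and 5.30, 5.81 and 6.16 FPKM with dacomitinib. FANCD2 (ENSG00000144554, chromosome 3, 10026414 to 10101930) measured 8.64, 8.09 and 9.86 FPKM in the controls and 1.28, 1.73 and 1.20 FPKM with dacomitinib. In both the dacomitinib libraries are well below the controls, at 17.7% and 15.8% of the control mean, with differences of -2.31 (SE 0.06, limma adjusted p = 9.61e-07) and -2.04 (SE 0.11, limma adjusted p = 1.52e-05). FANCI over FANCD2 was 3.79, 3.89 and 3.38 in the controls and 4.15, 3.35 and 5.13 with dacomitinib, the only one of 12 pairs compared whose ratios overlapped between groups. The pairs were chosen after the values were seen, and 3 against 3 libraries cannot go below p = 0.1 in an exact permutation test, so no test is given for the ratios.

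**Figure D3:**
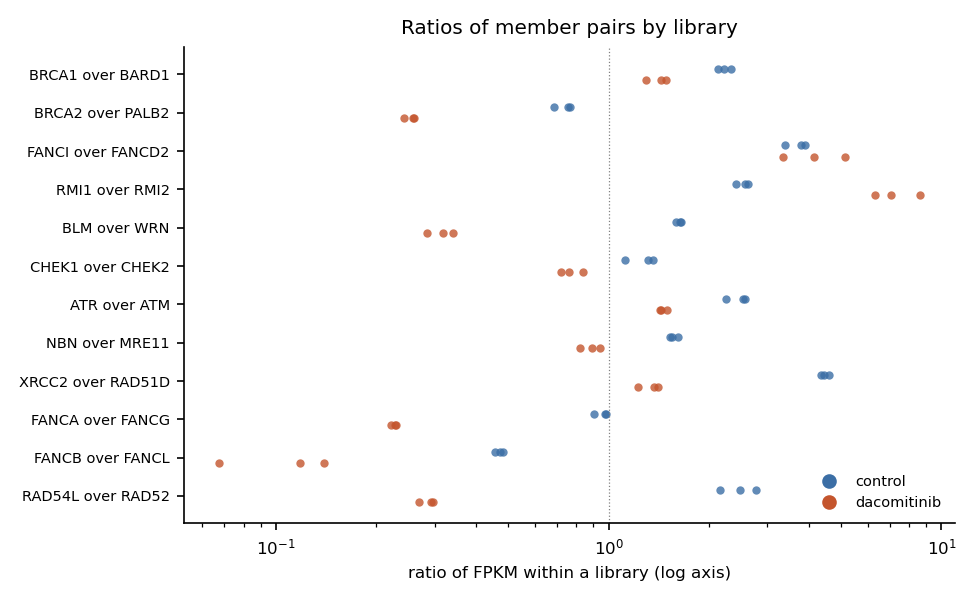
Ratio of the FPKM of 2 members within each library, on a log axis, for 12 pairs; points are libraries. The RMI1 over RMI2 ratio is higher in every dacomitinib library (6.33 to 8.62) than in any control (2.41 to 2.63), FANCI over FANCD2 overlaps, and the other 10 ratios are lower in every dacomitinib library.

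The order of the members by level changed between the groups. FPKM here is per length of all annotated exons of a gene, which need not be the length of its RNA. Shared exons, as in RAD50, XRCC3 and RAD54B, can also alter a level. The order between genes is therefore only approximate. In controls RMI1 (33.4 ± 1.41 FPKM), FANCI (32.5 ± 0.947) and RBBP8 (30.5 ± 0.570) were highest, and RMI1 and FANCI do not differ beyond their spread. With dacomitinib the highest were RBBP8 (19.7 ± 0.556 FPKM), MRE11 (14.0 ± 1.01) and RMI1 (12.7 ± 0.370), followed within their spread by FANCL and NBN. EXO1 went from rank 8 to rank 34 of 38, BLM from 17 to 36, and FANCA from 20 to 37. In the other direction RAD52 went from rank 31 to 11 and FANCC from 27 to 10, without a called change of their own. Across the 37 tested genes, which share the same libraries, the log2 control level and the difference had a Pearson r of -0.44 and a Spearman rho of -0.45. The control values enter both quantities, so r and rho are no independent measure of how level relates to change. The log2(FPKM + 1) scale itself understates the change of low genes, and limma-voom, run on the recovered fragments, gave a median of -1.36 for the members.

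**Figure D4:**
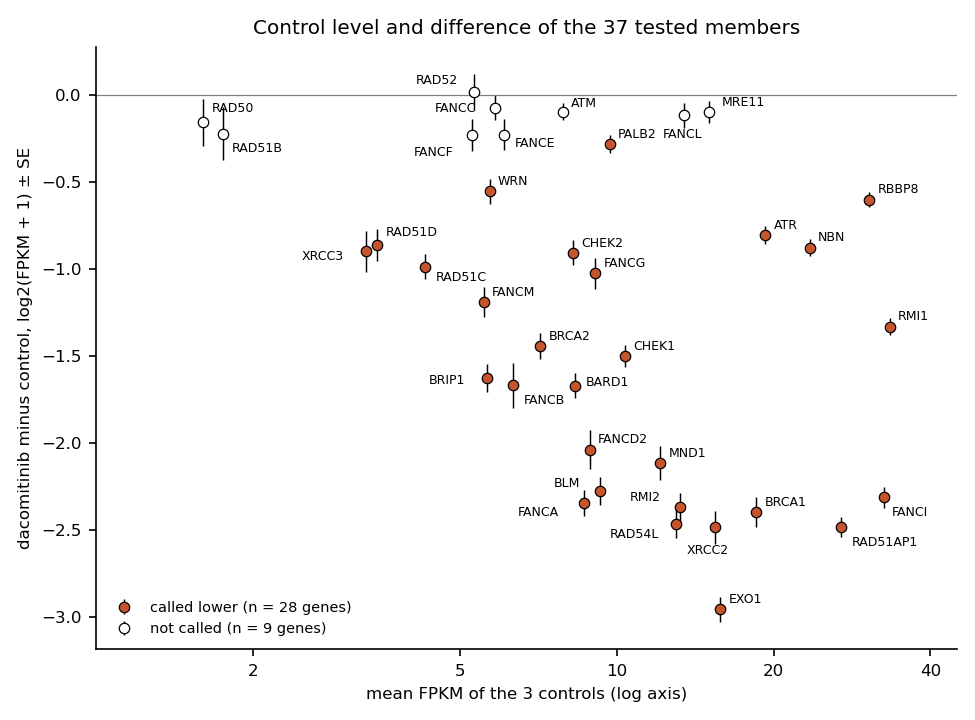
Mean FPKM of the controls (log axis) against the difference in log2(FPKM + 1) with its standard error, for the 37 tested members. Filled points are the 28 called lower and open points the 9 not called. The 9 lie at -0.23 to 0.01, at control levels from 1.60 to 15.0 FPKM, so levels of called and uncalled members overlap.

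Other genes of the same pathways, listed by pathway, fell in most cases too. Of 32 tested genes listed under homologous recombination 20 fell and 2 rose, of 15 of the Fanconi pathway 10 fell and 2 rose, and of 18 of damage signalling 12 fell and 1 rose, again beside 34.8% and 25.4% of all tested genes. The recombination list also holds genes that limit recombination or serve another route. POLQ, the polymerase of theta-mediated end joining, fell from 16.6 ± 0.363 to 1.92 ± 0.165 FPKM and PARPBP, which limits recombination, fell from 8.66 ± 0.510 to 1.73 ± 0.200 FPKM (SD, n = 3). ABRAXAS1, a scaffold that holds BRCA1 in a deubiquitinating complex, rose from 1.23 ± 0.0435 to 3.42 ± 0.449 FPKM (log2 difference 0.98, SE 0.10, limma adjusted p = 0.000246), and ZSWIM7, of the Shu complex, rose from 9.18 ± 0.293 to 12.1 ± 1.18 FPKM. UBE2T, the ubiquitin-conjugating enzyme that works with FANCL, fell from 31.7 ± 2.98 to 5.31 ± 1.09 FPKM (log2 difference -2.39, SE 0.13, limma adjusted p = 1.78e-05), and CENPX, which binds FANCM, fell from 14.9 ± 2.40 to 4.32 ± 0.629 FPKM. WDR48, the partner of the deubiquitinase USP1 that acts on FANCD2, rose from 7.41 ± 0.224 to 10.3 ± 0.759 FPKM, while USP1 fell from 40.7 ± 2.34 to 15.7 ± 1.56 FPKM. ERCC1, a nuclease subunit for crosslinks, rose from 5.58 ± 0.0810 to 7.19 ± 0.496 FPKM. In damage signalling, the histone H2AX fell from 83.8 ± 5.13 to 9.56 ± 2.71 FPKM, CLSPN, the adaptor between ATR and CHEK1, fell from 10.6 ± 0.511 to 0.718 ± 0.0387 FPKM, and RAD9A, of the 9-1-1 clamp, rose from 7.05 ± 0.841 to 9.35 ± 0.370 FPKM. With TPM the 3 lists had 36 of 65 genes lower and 15 higher, beside 19.8% and 42.0% of all tested genes.

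RTEL1 and SLX1A, 2 other recombination genes, were below the limit, with 70.2% and 86.0% of their exonic bases shared in GENCODE 29 on the same strand with a readthrough gene. How the authors' counting treated fragments in such shared exons was not tested. Among the 38 members, 3 share at least 50% of their exonic bases with another gene (RAD50, XRCC3 and RAD54B) and 16 share none. Without these 3, a choice made after the values were seen, 27 of 35 tested members were called lower.

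The routes of DNA repair that do not use recombination held calls in both directions, more of them lower. Of their 41 tested genes 26 fell (63.4%) and 6 rose, beside 34.8% and 25.4% of all tested genes. Called lower were 64.6% of the 65 other genes of recombination, Fanconi and damage signalling, and 75.7% of the members. In non-homologous end joining 5 of 9 tested genes fell and 2 rose. PRKDC, the DNA-dependent protein kinase, fell from 105 ± 5.42 to 34.0 ± 0.312 FPKM, and PAXX from 15.6 ± 1.07 to 4.71 ± 0.924 FPKM, while LIG4, the ligase of that route, rose from 7.47 ± 0.890 to 10.1 ± 0.336 FPKM and POLL from 4.79 ± 0.638 to 6.12 ± 0.604 FPKM (SD, n = 3). In mismatch repair 5 of 7 fell, with a median log2 difference over the list of -0.59, and 1 rose, PMS2, from 11.3 ± 0.379 to 18.2 ± 0.557 FPKM. In nucleotide excision repair 5 of 12 fell (41.7%, beside 34.8% of all tested genes) and 2 rose. In TPM 2 of these 12 were lower and 5 higher, beside 19.8% and 42.0% of all tested genes. The list's median was -0.18, and 0.13 in TPM, against -0.06 and 0.23 over all tested genes. There RAD23B fell from 129 ± 1.72 to 79.3 ± 1.17 FPKM, XPC rose from 3.80 ± 0.228 to 6.40 ± 0.158 FPKM and ERCC6 rose from 3.11 ± 0.175 to 4.09 ± 0.465 FPKM. In base excision repair 11 of 13 fell and 1 rose: UNG fell from 30.6 ± 1.75 to 8.65 ± 1.14 FPKM, PARP1 from 39.2 ± 2.02 to 15.0 ± 0.364 FPKM, and NEIL1 rose from 1.20 ± 0.134 to 2.69 ± 0.344 FPKM. In TPM 6 of these 13 were lower and 2 higher. Over these 4 lists the median log2 difference was -0.37, against -1.03 for the members and -0.06 for all tested genes. Called and at least 2-fold lower were 8 of 41 genes, against 19 of 37 members and 6.81% of all tested genes. In TPM 17 of the 41 were lower and 11 higher, again beside 19.8% and 42.0% of all tested genes. No test of the difference between lists was made.

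**Figure D5:**
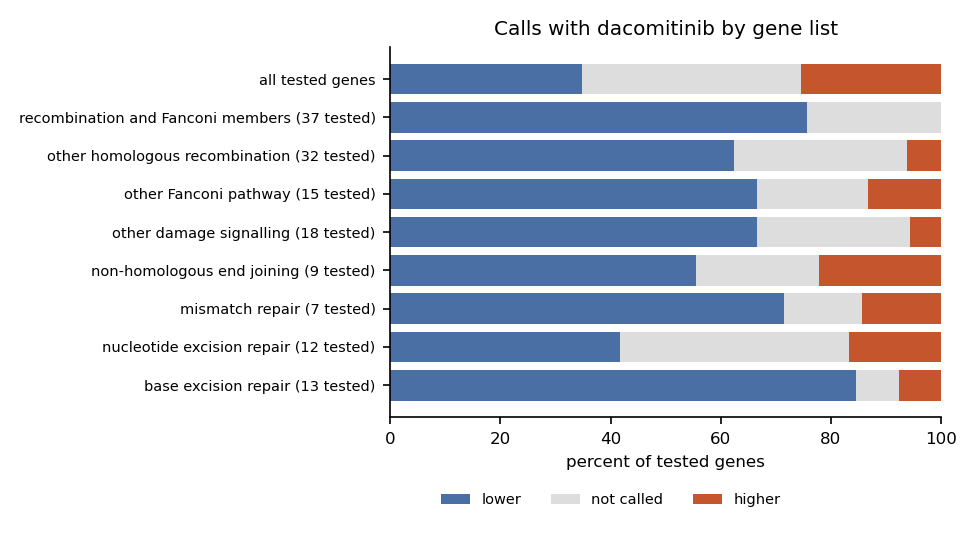
Percent of tested genes called lower, not called and called higher with dacomitinib, for all 13748 tested genes, the 37 tested members and 7 lists of other repair genes. On the deposited scale shown, the members have 28 lower and 0 higher calls, and each of the 7 other lists has at least 1 higher call. In TPM, not shown, 2 members are called higher.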

How the data were processed

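RNA-seq of 3 control and 3 dacomitinib samples was analysed from 1 deposited FPKM table. The tools named in the submitters' processing notes are HISAT2, featureCounts, fastp, CASAVA and DESeq2 1.20.0, and the build is GRCh38; which step each served is not recorded. The deposited FPKM times the table's gene length gave whole fragments for 100% of values in each library (tolerance 0.01). Relative to the sum of fragments, the authors' implied library size was 0.952 ± 0.00449 in controls and 1.07 ± 0.0244 with dacomitinib (SD, n = 3), so the deposited FPKM carry a scaling beyond the fragment sum. That the dacomitinib columns carry the letter S, found in no label, is the reason for their assignment by elimination.

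Differences were tested with limma 3.58.1 (R 4.3.3, mean-variance trend, two-sided) on log2(FPKM + 1) for genes with a mean of at least 1 FPKM over the 6 libraries. The procedure was tested on simulated data in which few genes changed and the groups had no scaling difference, unlike these data. Errors of FPKM are SD, those of log2 differences SE. The members and lists were chosen with earlier results of these data known. By the naming rule, every member is named, with library values for the 2 largest falls of each role group and for members that did not pass; other lists give up to 2 genes in each direction. A few genes that the rule names are not reported here, so the examples of a list need not follow its counts. USP1, MKI67, PCNA, CDH5, CD74 and the other markers and partner genes are named outside it, after their values were seen. HROB and H2AX were matched by gene identifier. Python 3.11.15 was used for counts and figures. Gene overlap was computed from GENCODE 29, which has the table's coordinates for all 38 members. Alternatives were other pseudocounts (0.1, 0.5), filters, scalings, no trend, a replicate block, limma-voom on the recovered fragments and leaving out each library. The limma-voom fit used the authors' implied library sizes, so it cannot check that scaling. Leaving out members with shared exons was added after seeing the data.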

Additional observations from a re-analysis of the deposited data

How the results depend on the processing

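Of 28 members called lower, 27 were called lower in every alternative that tested them; PALB2 was not called with TPM or quantile normalization. Members called lower ranged from 19 at a mean of at least 5 FPKM, which tests fewer genes, to 29, and were 28 to 29 when 1 library was left out. Higher members were 2 with TPM and 0 otherwise. Their median of -1.03 was -1.31 and -1.15 with pseudocounts of 0.1 and 0.5, -1.33 at 5 FPKM, -0.95 with TPM and with median of ratios, -1.36 with voom, and -1.10 to -0.97 when 1 library was left out. Over all genes, lower calls (4778) were 2721 with TPM, and higher calls (3493) were 5779 with TPM and 1946 at 5 FPKM. Of the other repair genes (65 of recombination, Fanconi and damage signalling and 41 of other routes), 11 were higher, 26 with TPM and 18 with quantile normalization. Over all tested genes 25.4% were higher, 42.0% with TPM and 30.4% with quantile normalization. Some small differences changed sign. With TPM they were 0.20 for ATM, 0.21 for MRE11, 0.041 for RAD50, 0.0017 for PALB2, 0.22 for FANCC, 0.043 for FANCE, 0.037 for FANCF and 0.19 for FANCL. With quantile normalization they were 0.033 for ATM, 0.11 for MRE11, 0.030 for FANCC and 0.083 for FANCL, and with median of ratios 0.0019 for FANCC. RAD52 went from -0.082 (without control replicate 2) to 0.065 (without control replicate 3) when 1 library was left out, and was -0.047 without dacomitinib replicate 2. The cause of these changes was not tested. No label says what the replicate numbers share, and those of dacomitinib only name columns. A replicate block on them gave 29 members lower and 4618 genes lower in all. Same-numbered libraries had correlations of deviations of -0.0158 to 0.0402, and differently numbered ones of -0.0761 to 0.0533. With 3 libraries per group these values cannot decide whether the numbers pair them. RAD50 and RAD51B, under 2 FPKM in both groups, had SE of 0.13 and 0.15.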
